A study of Homo sapiens with 8 samples.

Results

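Glucagon (GCG) and somatostatin (SST) are the 2 genes described here, out of 16525 listed in a table of RNA sequencing values from EndoC-βH5 cells. They were taken by gene name, and both were listed. EndoC-βH5 is a human beta-cell line that was derived from fetal pancreas, immortalized with SV40 large T-antigen and telomerase transgenes and later freed of both. It is 1 line, so its cultures are not different donors. RNA was taken from 4 control cultures that received no cytokine and from 4 cultures exposed for 48 h to recombinant human IL-1β, IFNγ and TNFα together. The question the design addresses is how pro-inflammatory cytokines change the transcriptome of these cells.

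In the adult islet, insulin is made by beta cells, glucagon by alpha cells and somatostatin by delta cells. Glucagon raises blood glucose by acting on the liver, and the same precursor can be cut into glucagon-like peptides that act on beta cells. Somatostatin acts locally and restrains the release of both insulin and glucagon. Endocrine cells of the developing pancreas can hold transcripts of more than one hormone.

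Columns are not numbered as replicates. Their names begin with a prefix that 1 control and 1 cytokine column have in common, which gives pairs A, B, C and D. Prefixes A and B end in 21, and prefixes C and D in 22. What these endings mark is not given in the sources used here. Deposited values are CPM, that is, the reads on a gene divided by the read total of the library and multiplied by a constant. Library totals ranged from 46767972 to 51145634 reads, and 1 read equalled 0.0196 to 0.0214 CPM. In library D of both conditions a larger part of the total was not on listed genes (26.6% in control, 26.5% with cytokines, against a median of 20.9% over all 8). Nothing in the labels says how separate the 4 cultures of a condition were, so p-values measure the spread between these libraries. In the fits over all genes they also draw on the spread of other genes.

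GCG (ENSG00000115263) lies on the minus strand of chromosome 2, from 162142873 to 162152404 on GRCh38. SST (ENSG00000157005) lies on the minus strand of chromosome 3, from 187668906 to 187670399, and has 2 exons. In GENCODE release 29 no other gene overlaps either of them on any strand. The sequence upstream of SST holds 1 copy of the cAMP response element TGACGTCA, which begins 47 bases before the RefSeq start and is shown in capitals. This element, through which CREB activates SST, was found on either strand in 1.85% of 35116 RefSeq promoter windows of 300 bases. The stretch shown ends where the first annotated exon begins (GRCh38.p14, chr3:187670400-187670644, minus strand, read 5′ to 3′).
SST upstream: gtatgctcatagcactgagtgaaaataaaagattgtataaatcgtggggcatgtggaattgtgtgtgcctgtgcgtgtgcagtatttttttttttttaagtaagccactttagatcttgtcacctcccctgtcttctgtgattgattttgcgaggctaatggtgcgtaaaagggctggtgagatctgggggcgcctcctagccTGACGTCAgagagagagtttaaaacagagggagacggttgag

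Only 93 bases of the GCG window lie upstream of every annotated exon, against 245 for SST, so the windows cover unlike regions. The stretch printed below lies within the annotated span of GCG. Sequence beyond the windows was not searched, and the GCG window holds no copy of TGACGTCA. It has the TATA motif TATAAA, in capitals below, beginning 30 bases before the RefSeq start (GRCh38.p14, chr2:162152260-162152289, minus strand, read 5′ to 3′).
GCG proximal: agctggagagtaTATAAAagcagtgcgcct
TATAAA was found on either strand in 11.5% of the same windows. A second GCG copy begins at -79 and 1 SST copy at -215, on either strand. Both windows were also searched on both strands for motifs of factors downstream of the cytokines. The gamma-activated site TTCNNNGAA was found in 7.66% of all windows, the consensus of the interferon-stimulated response element in 3.57% and the NF-kB consensus in 11.3%. Neither hormone gene had a match to any of these 3 within its 300 bases. The E-box CANNTG, which islet basic helix-loop-helix factors bind, begins at -147, -116 and -90 in GCG and at -201 in SST, and was found in 68.7% of all windows.

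SST was among the most abundant transcripts of these cells, and GCG was far lower. Levels of different genes are compared here as TPM, in which reads are divided by exon length and scaled to the same sum in every library. SST was at 9617, 11657, 4223 and 2511 TPM in control libraries A to D. It ranked between 14th and 26th among the 16167 genes with an annotated length over all 8 libraries. INS, the insulin gene, was at 10776, 12585, 11666 and 6516 TPM in the same control libraries, and ranked between 10th and 15th over all 8. The TPM values that the paper lists for INS differ from these, and its highest control value lies above any here. GCG was at 28.0, 38.4, 395 and 190 TPM in control libraries A to D and ranked between 208th and 8038th over all 8. The 2 hormones thus differed in how much they varied as well as in level. The highest library exceeded the lowest by 34.3-fold for GCG, by 6.03-fold for SST and by 2.51-fold for INS, in CPM.

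In CPM, GCG was at 19.8, 27.2, 222 and 104 in control libraries A to D, from 927, 1287, 11167 and 5302 reads. With cytokines it was at 6.47, 9.80, 40.7 and 81.1 CPM, from 304, 459, 2024 and 4035 reads. C and D were above A and B in both conditions, and the lowest cytokine values were those of A and B. SST was at 1761, 2143, 615 and 355 CPM in control libraries A to D and at 1763, 1980, 653 and 468 CPM with cytokines. Here A and B were above C and D in both conditions. In both genes control and cytokine libraries overlapped. Over all genes 32.8% had ranges that did not overlap.

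**Figure D1:**
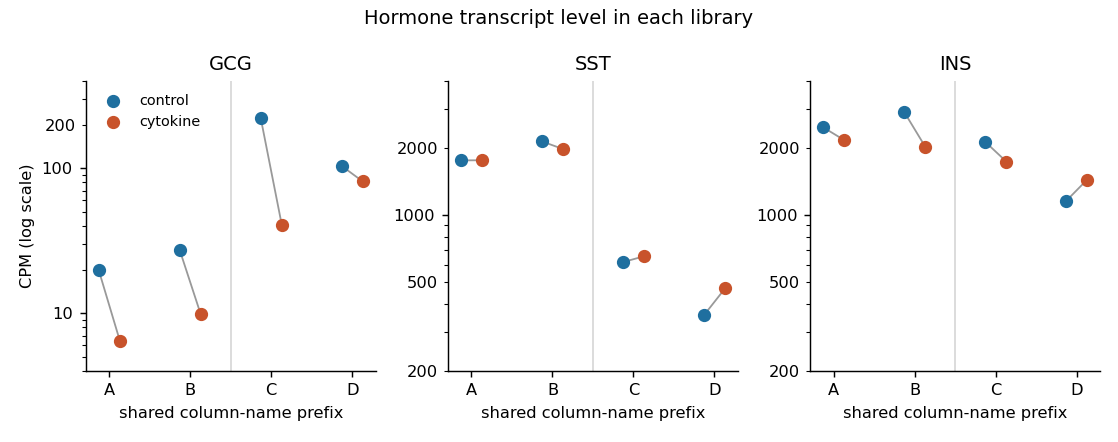
CPM of GCG, SST and INS (log axes, which differ between GCG and the other panels) in each library, with the control and cytokine library of the same column-name prefix joined by a line. GCG spans 6.47 to 222 CPM and is highest in C and D, while SST spans 355 to 2143 CPM and is highest in A and B.

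The 2 hormones went opposite ways between the name endings. With condition as a covariate, GCG was higher in C and D than in A and B by 2.77 on the log2 scale (95% interval 2.24 to 3.30, adjusted p = 1.8e-05, limma). SST was lower in C and D by a log2 difference of -1.91 (95% interval -2.28 to -1.54, adjusted p = 2.1e-05, limma). This fit counts the control and cytokine library of a prefix as separate replicates of an ending. Prefixes A and B alone stand for an ending, as do C and D. Intervals, p-values and calls between endings, here and below, can therefore overstate the certainty. As ratios of mean CPM, GCG was 6.93-fold higher in C and D among control libraries (163 against 23.5 CPM) and 7.48-fold higher among cytokine libraries (60.9 against 8.14 CPM). SST was 4.02-fold lower among control libraries (485 against 1952 CPM) and 3.34-fold lower among cytokine libraries (561 against 1872 CPM). Both members were called at an absolute log2 difference above 0.5 and an adjusted p below 0.05. Of all genes 20.7% were called in this comparison, 14.2% higher and 6.50% lower in C and D. Only 10 genes had a larger absolute difference than GCG, and 53 than SST. Scaling by trimmed means (TMM) gave 2.64 for GCG and -2.03 for SST, with both calls kept. The median over all genes was 0.12 on the CPM scale and 0.00035 with TMM.

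A moderated F test over the 4 prefixes passed for both members at an adjusted p below 0.05, as it did for 48.6% of all genes. Within an ending, control libraries A and B were close (19.8 and 27.2 CPM for GCG, 1761 and 2143 CPM for SST). Control libraries C and D were farther apart (222 and 104 CPM for GCG, 615 and 355 CPM for SST), with C above D for both hormones. What sets the endings apart cannot be told from the labels. In RNA from a whole culture, fewer cells with a transcript and less transcript per cell also cannot be told apart.

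Cytokines went with less GCG transcript and with no called difference in SST. GCG was 93.3 ± 94.0 CPM (SD, n = 4) in control libraries and 34.5 ± 34.7 CPM (SD, n = 4) with cytokines. It was lower with cytokines in all 4 pairs, by -1.60, -1.47, -2.44 and -0.35 on the log2(CPM + 0.1) scale in A to D, as 43.6% of all genes were lower in all 4 pairs on this scale. In A to C the cytokine library held 32.7%, 36.0% and 18.3% of the control value, and in D it held 78.2%. Without pairing the spread between prefixes was larger than this difference, which was -1.47 in log2 (SE 0.88, 95% interval -3.42 to 0.48, adjusted p = 0.237 by limma). With the pairs as a replicate block the same difference had an SE of 0.21 and was called (95% interval -1.92 to -1.01, adjusted p = 3.89e-05, limma). This SE also draws on the variance of other genes, and the values of pairs C and D lie outside the interval. Leaving out pair C, which had the largest fall, gave -1.14 and leaving out pair D gave -1.84, both still called with the block. With the replicate block and TMM scaling on reads, edgeR gave -1.30 (adjusted p = 0.000376) and called it too. On GCG alone, a 2-sided exact permutation test over all libraries gave p = 0.257. Permuting only within the name endings gave p = 0.0556, the smallest that this exact test can give. Over all genes the median difference was -0.17 on the CPM scale and -0.02 with TMM, against -1.47 and -1.31 for GCG.

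SST was 1219 ± 868 CPM (SD, n = 4) in control libraries and 1216 ± 766 CPM (SD, n = 4) with cytokines. In pairs A to D the log2 difference of SST was 0.0021, -0.11, 0.09 and 0.40. The mean of 0.09 had an SE of 0.61 without pairing (adjusted p = 0.926, limma). With the replicate block its 95% interval was -0.06 to 0.25 (adjusted p = 0.274, limma), which leaves out changes as large as the 0.5 used as threshold. With TMM scaling and the block the difference was 0.25 and its adjusted p was below 0.05 in limma (0.019) and edgeR (0.0205), but it stayed under that threshold.

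Of the 2 members, limma without the block called 0 and 0 had an unadjusted p under 0.05. edgeR and DESeq2 without the block also called 0 of the 2. Over all genes this fit called 27.0%, and 17.5% were called lower. With TMM scaling 2154 genes were called higher and 1933 lower, against 1574 and 2896 on the CPM scale. With the replicate block 1 of the 2 members was called, GCG, and 35.4% of all genes were called, with 23.8% of all genes called lower. The cytokine difference did not detectably depend on the name ending. The GCG difference was -1.53 in A and B and -1.40 in C and D, and their difference of 0.13 had a 95% interval of -1.01 to 1.27 (adjusted p = 0.999, limma). For SST the difference was -0.06 in A and B and 0.24 in C and D, and the interval of the contrast was -0.50 to 1.09 (adjusted p = 0.999, limma). Of all genes 0.0303% passed this interaction test, and 0 of the 2 members did at an unadjusted p under 0.05.

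**Figure D2:**
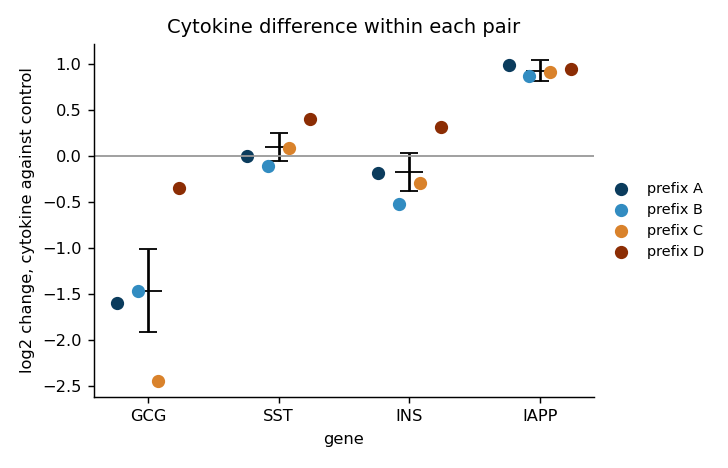
Log2 change in CPM + 0.1, cytokine against control, within each of the pairs A to D (points) for GCG, SST, INS and IAPP, with the mean and its 95% interval from limma with the pairs as a block (bars). All 4 GCG points lie below 0, from -2.44 to -0.35, while SST lies between -0.11 and 0.40 and IAPP between 0.87 and 0.98.

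INS served as the reference for the beta-cell transcript in each library. It was 2169 ± 744 CPM (SD, n = 4) in control libraries and 1846 ± 322 CPM (SD, n = 4) with cytokines and was not called (adjusted p = 0.684, limma; adjusted p = 0.141 with the replicate block). Of the 776 exon bases of INS, 246 also belong to INS-IGF2, where reads can be dropped in counting, so INS may be undercounted by an amount that was not measured. The paper's TPM values for INS also differ from those computed here, so the percentages of INS hold for these counts only. As reads per kilobase of exon, GCG was 0.260%, 0.305%, 3.39% and 2.91% of INS in control libraries A to D. With cytokines it was 0.0969%, 0.157%, 0.761% and 1.82% of INS. The C and D libraries were again above the A and B libraries in each condition. SST was 89.2%, 92.6%, 36.2% and 38.5% of INS in control libraries A to D. With cytokines it was 102%, 123%, 47.1% and 40.7% of INS, so that it exceeded INS per length in cytokine libraries A and B. With the length of the longest coding transcript in place of all exons, GCG ranged from 0.148% to 5.16% of INS and SST from 29.8% to 101%.

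Relative to INS, GCG was lower with cytokines in all 4 pairs and SST higher in all 4. The log2 ratio of GCG to INS in CPM changed by -1.41, -0.95, -2.15 and -0.67 in A to D, a mean of -1.30 (2-sided exact permutation test over 8 libraries, p = 0.371). That of SST to INS changed by 0.19, 0.40, 0.38 and 0.08, a mean of 0.26 (2-sided exact permutation test, p = 0.514). The ratio of GCG to SST was lower in each pair, with a mean of -1.56 (2-sided exact permutation test, p = 0.457). Adjusted over these 3 tests each p was 0.514. Permuting conditions only within the name endings, an addition made after seeing the data, gave p = 0.0556 for each ratio, the smallest that an exact test can give there. An exact sign-flip permutation test over the 4 pairs gave p = 0.125 for each, which is also its smallest. Neither of the paired tests can pass 0.05 in this design. With IAPP in place of INS the SST ratio turned to -0.83 (p = 0.514, 2-sided exact permutation test), since IAPP, which encodes islet amyloid polypeptide, was higher with cytokines.

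**Figure D3:**
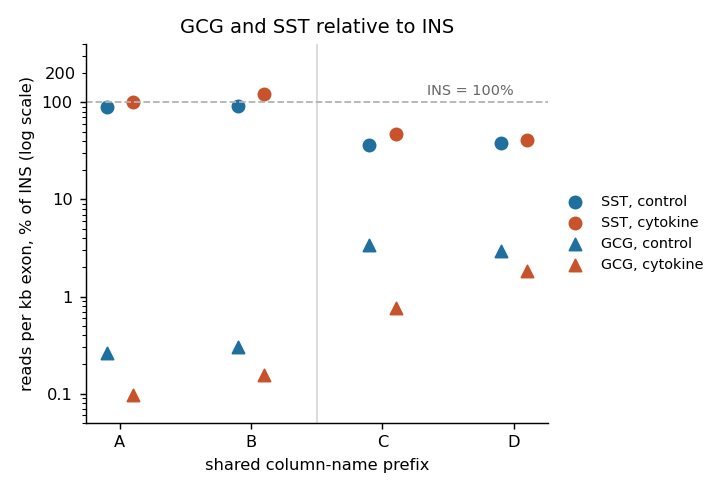
Reads per kilobase of exon of SST (circles) and GCG (triangles) as a percentage of INS in the same library (log axis), for control and cytokine libraries of prefixes A to D. SST lies near the INS line in A and B (89.2% to 123%) and lower in C and D (36.2% to 47.1%), and GCG lies between 0.0969% and 3.39%.

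The other hormones were set beside the 2 members from a list of 11 hormones and co-secreted peptides, of which 9 were listed. Without the block limma called 0 of the 9, with 1 at an unadjusted p under 0.05, and edgeR with TMM called 1, IAPP. With the replicate block limma called GCG lower and IAPP and PPY higher, where 35.4% of all genes were called. IAPP, a partner of insulin in the beta-cell granule, rose from 4102 ± 1844 to 7787 ± 3443 CPM (SD, n = 4 each) in that fit, by 0.93 (adjusted p = 3.52e-09, limma with the block). PPY, pancreatic polypeptide, was at 0.444 ± 0.256 and 0.759 ± 0.306 CPM (SD, n = 4 each), far below the other islet hormones. UCN3, which beta cells release to stimulate delta cells, was 393 ± 135 CPM in control libraries and 334 ± 139 CPM with cytokines (SD, n = 4 each), without a call. Between the endings 7 of the 9 were called, GCG and SST among them, against 20.7% of all genes (14.2% higher and 6.50% lower). GCG, IAPP, PPY and PYY were higher in C and D, and INS, SST and UCN3 were lower. The INS call holds for CPM. In TPM, control library C (11666) lay between A (10776) and B (12585), and only D was lower (6516). The TPM that the paper lists for INS are highest in its replicates CTRL_3 and CYT_3, which are not matched to A to D here. Of 6 genes of the glucagon and secretin superfamily 3 were listed, GCG, SCT and GHRH, and 1 was called lower, as 17.5% of all genes were. SCT, secretin, was 12.5 ± 3.58 and 11.7 ± 1.99 CPM (SD, n = 4 each). GHRH, growth hormone-releasing hormone, was 1.65 ± 0.442 and 0.907 ± 0.168 CPM (SD, n = 4 each) and was called lower with cytokines (-0.79, adjusted p = 0.0366, limma), which was lost with TMM scaling (adjusted p = 0.0946, limma).

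Prohormone convertases and granule proteins turn the precursors into active hormones. All 11 genes of this list were listed, and limma called 3 higher and 1 lower, with a median of 0.39 against -0.17 over all genes. The share called among all genes was 27.0%, with 17.5% lower. PCSK2, the convertase that releases glucagon from its precursor, fell from 535 ± 82.9 to 260 ± 8.75 CPM (SD, n = 4 each), by 1.03 on the log2 scale (adjusted p = 0.000204, limma). PCSK1, which releases glucagon-like peptide 1 in other cells, was 449 ± 211 and 614 ± 329 CPM (SD, n = 4 each), 0.42 apart in log2 and not called. The granule peptide VGF rose by 1.82, and the secretogranins SCG2 and SCG3 both rose by 0.87 (adjusted p up to 0.0403, limma). CHGA, chromogranin A, was the most abundant at 19221 ± 3843 and 25501 ± 7243 CPM (SD, n = 4 each) and was not called. PCSK1N, an inhibitor of PCSK1, was 2009 ± 626 and 1856 ± 510 CPM, and CPE, which trims the cut peptides, was 1861 ± 811 and 1790 ± 805 CPM (SD, n = 4 each), both without a call. SCG2 was 672 ± 252 and 1216 ± 413 CPM (SD, n = 4 each). Between the endings 5 were higher in C and D, as GCG was (PCSK1, CPE, PAM, CHGB and SCG2), and PCSK1N was lower. The shares of all genes were 14.2% higher and 6.50% lower. PCSK1 differed by 1.07 and CPE by 0.97, against 2.77 for GCG.

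HHEX, the transcription factor that defines delta cells, was 10.5 ± 4.40 and 8.47 ± 2.85 CPM (SD, n = 4 each) and was not called with cytokines. Between the endings 1 delta-cell gene was called lower and 1 higher in C and D, where 6.50% and 14.2% of all genes were. HHEX was lower by -0.91 (adjusted p = 0.00161, limma), and EDN3, which encodes endothelin 3, was higher by 1.11 (adjusted p = 0.00368, limma), and both calls were kept with TMM scaling.

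Of 12 alpha-cell genes, 10 were listed and POU3F4 and FAP were not. With cytokines 4 were called higher and 1 lower, with a median of 0.17 against -0.17 over all genes. Among all genes 27.0% were called, 17.5% lower. TM4SF4, a membrane protein, fell from 16.2 ± 3.32 to 3.04 ± 0.620 CPM (SD, n = 4 each), by 2.37 (adjusted p = 9.31e-06, limma). GC, the vitamin D-binding protein, rose from 101 ± 25.3 to 858 ± 130 CPM (SD, n = 4 each), by 3.11 (adjusted p = 1.41e-06, limma). KCTD12 rose from 27.9 ± 4.77 to 149 ± 30.1 CPM (SD, n = 4 each), by 2.41, IRX2 by 0.91 and SLC38A4 by 0.68. The most abundant gene of the list, TTR, which encodes transthyretin, was 2084 ± 446 and 2196 ± 392 CPM (SD, n = 4 each) and was not called. CRYBA2, a crystallin gene, was 138 ± 37.6 and 100.1 ± 21.1 CPM (SD, n = 4 each), also without a call. LOXL4 and DPP4 were called higher in C and D and 0 lower, while with TMM scaling IRX1 was also called, lower at -0.51 (adjusted p = 0.018, limma). On the CPM scale 14.2% of all genes were called higher there. The median of the list between endings was 0.08, against 0.12 over all genes. Summed over the list, control libraries held 1994 to 3186 CPM and cytokine libraries 2940 to 4124 CPM. TTR held most of this sum and GC most of its rise, while TM4SF4, CRYBA2, DPP4 and LOXL4 had lower means with cytokines.

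Of 11 delta-cell genes, 7 were listed, and GHSR, BCHE, ERBB4 and PRG4 were not. With cytokines 0 were called higher and 3 lower (UCP2, CASR and RBP4), and the median was -0.70. Of all genes 17.5% were called lower, and the median of all genes was -0.17. UCP2, a mitochondrial carrier, fell from 98.8 ± 6.78 to 43.1 ± 6.51 CPM (SD, n = 4 each), by 1.20 on the log2 scale. CASR, the calcium-sensing receptor, fell from 403 ± 37.9 to 231 ± 41.7 CPM, by 0.82, and RBP4, a retinol carrier, from 39.9 ± 2.93 to 24.4 ± 1.67 CPM, by 0.71 (SD, n = 4 each). EDN3 was called lower only with the block, at -0.70. These genes are not particular to delta cells, and SST itself was not called. Summed over the list, control libraries held 500 to 606 CPM and cytokine libraries 267 to 364 CPM, mostly from CASR. The part of either marker list in the hormone differences was not tested.

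Among transcription factors that islet endocrine cells share, the calls with cytokines on the CPM scale were all lower. Of 18 genes 16 were listed, NEUROG3 and FOXA1 were not, and 0 were called higher and 9 lower, with a median of -0.59. The share of all genes called lower was 17.5%. With TMM scaling 2 were called higher (NKX6-1 and GLIS3) and 6 lower. PAX6, which activates GCG, INS and SST, was 621 ± 86.4 and 422 ± 102 CPM (SD, n = 4 each), and was called lower at -0.58 (adjusted p = 0.0407, limma), which was lost with TMM scaling (adjusted p = 0.183, limma). PDX1, which activates INS and SST, fell from 383 ± 28.9 to 222 ± 10.5 CPM (SD, n = 4 each), and ISL1, another activator of GCG and SST, fell by 0.73. INSM1, an endocrine differentiation factor, fell from 653 ± 70.9 to 341 ± 37.5 CPM (SD, n = 4 each), by 0.94. MAFA, an activator of INS, fell from 22.5 ± 5.86 to 4.57 ± 0.990 CPM, by 2.27, and PAX4, a repressor of alpha-cell genes, from 3.05 ± 0.673 to 0.791 ± 0.438 CPM, by 1.98 (SD, n = 4 each). MLXIPL was the most abundant at 829 ± 312 CPM in control libraries and was called lower only with the block, at -0.61. Between the endings ISL1 was higher in C and D (0.57), and PAX4 and MLXIPL were lower by 0.90 and 0.91. Of all genes 14.2% were called higher and 6.50% lower there. With TMM scaling ISL1 was at 0.44 and no longer called, and 0 of the list were higher and 5 lower, with PAX6, FOXA2 and NKX2-2 added.

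**Figure D4:**
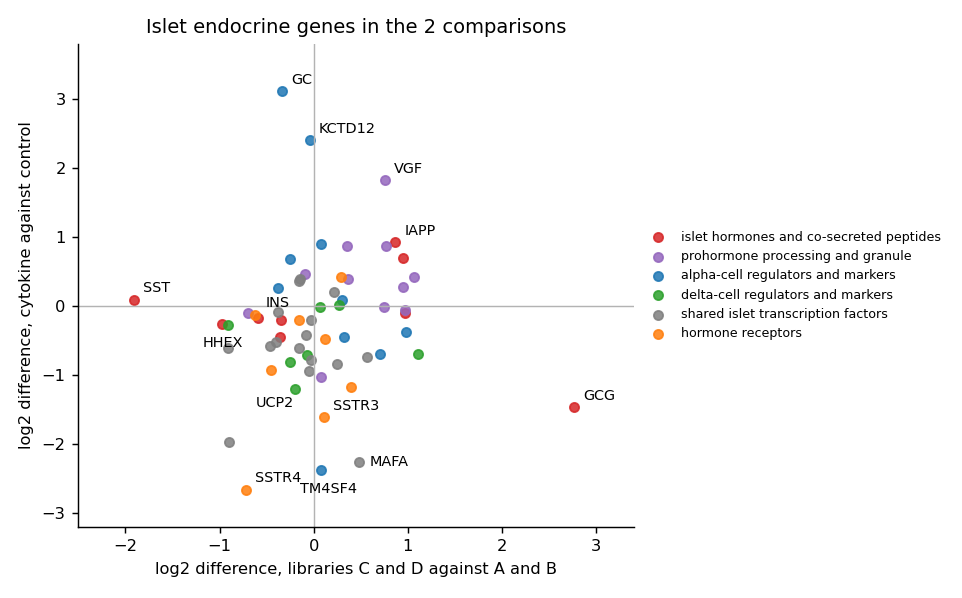
Log2 difference between libraries C and D and libraries A and B (horizontal) against the log2 difference between cytokine and control libraries (vertical), both in CPM + 0.1, for the listed genes of 6 endocrine gene lists (colours). GCG lies far right at 2.77 and -1.47, SST far left at -1.91 and 0.09, and the genes with the largest cytokine differences, GC at 3.11 and SSTR4 at -2.66, differ between endings by -0.33 and -0.72. SSTR4 had only 3 to 13 reads in each cytokine library.

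The receptors of both hormones were also transcribed. Of 9 receptor genes 8 were listed, GLP2R was not, and 0 were called higher and 4 lower with cytokines (median -0.70). Among all genes 17.5% were called lower. With TMM scaling SSTR2 was called higher and 3 were called lower. SSTR1, the most abundant somatostatin receptor, was 301 ± 50.7 and 264 ± 50.4 CPM (SD, n = 4 each) without a call. SSTR3 fell from 61.2 ± 5.66 to 20.1 ± 2.83 CPM (SD, n = 4 each), by 1.61 (adjusted p = 8.35e-06, limma). SSTR4 fell by 2.66 from 1.56 ± 0.275 to 0.179 ± 0.115 CPM (SD, n = 4 each), a cytokine level of only 3 to 13 reads per library. SSTR5 fell by 1.18 from 2.25 ± 0.453 CPM (SD, n = 4). SSTR2 was 70.4 ± 10.4 and 94.8 ± 17.6 CPM (SD, n = 4 each), 0.42 apart in log2 (adjusted p = 0.0563, limma), and was called with TMM scaling, at 0.58. Changes in the somatostatin receptors were thus unequal, with SSTR3, SSTR4 and SSTR5 called lower on both scales.

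The glucagon receptor GCGR was 81.0 ± 16.6 and 75.7 ± 23.8 CPM (SD, n = 4 each) and was not called (adjusted p = 0.708, limma). GLP1R, the receptor of glucagon-like peptide 1, was 78.2 ± 15.3 and 55.5 ± 3.20 CPM (SD, n = 4 each), and the difference of -0.48 (adjusted p = 0.0232, limma) stayed under the threshold of 0.5. GIPR, the receptor of a related gut hormone, was 224 ± 43.4 and 121 ± 35.2 CPM (SD, n = 4 each), and was called lower at -0.92 (adjusted p = 0.0145, limma), which was lost with TMM scaling (adjusted p = 0.0552, limma). Between the endings GCGR was called lower in C and D by -0.62, the 1 receptor called on the CPM scale, as 6.50% of all genes were. With TMM scaling 3 receptors were called lower there, GCGR at -0.75, GIPR at -0.58 and SSTR4 at -0.84, the last resting in part on the few cytokine reads given above.

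Of 18 genes of the cAMP and G-protein pathway downstream of these receptors, 17 were listed. Limma called 1 higher and 2 lower, and with the replicate block 2 higher and 3 lower. Among all genes 27.0% were called without the block and 35.4% with it. CREM, a cAMP-responsive repressor and activator, rose from 3.86 ± 1.12 to 12.3 ± 6.95 CPM (SD, n = 4 each), by 1.53 (adjusted p = 0.00822, limma). The adenylyl cyclase ADCY3 was called lower at -0.75 and RAPGEF4, a cAMP sensor, at -0.62, and the latter call was lost with TMM scaling (adjusted p = 0.0745, limma). The most abundant gene, GNAS, which encodes the stimulatory G-protein subunit, was 13926 ± 2614 and 14573 ± 2636 CPM (SD, n = 4 each) and was not called. GNAI2 and GNAO1, inhibitory subunits, were at 586 ± 67.8 and 509 ± 125 CPM in control libraries (SD, n = 4 each) and were not called with cytokines. PRKACA, a catalytic subunit of protein kinase A, was 308 ± 108 and 252 ± 67.7 CPM (SD, n = 4 each), without a call. CREB1, whose product binds the element printed above for SST, was 24.0 ± 3.89 and 27.3 ± 1.97 CPM (SD, n = 4 each) and was not called on this scale, with 0.35 and an adjusted p of 0.0298 with TMM scaling (limma), under the threshold of 0.5. Between the endings 3 were higher in C and D (CREM, GNAI3 and RAPGEF4, of which RAPGEF4 was lost with TMM scaling at 0.39), and 5 were lower, among them PRKACA, CRTC1 and CRTC2. The shares of all genes on the CPM scale were 14.2% higher and 6.50% lower.

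Genes with the most similar pattern were ranked by Pearson's r with each member over the 8 libraries, among 13872 genes with a symbol and a mean of at least 1 CPM. For GCG the 5 highest were FAM114A2 (r = 0.995), ILKAP (r = 0.992), IPO5 (r = 0.985), PCCA (r = 0.983) and ZNF525 (r = 0.982). Their differences between endings, from 0.29 to 0.73, were much smaller than the 2.77 of GCG. For SST they were ATP5MF (r = 0.994), JTB (r = 0.990), CASC3 (r = 0.988), DPF2 (r = 0.987) and SALL1 (r = 0.987). ATP5MF was at 39.7, 43.4, 14.1 and 9.48 CPM in control libraries A to D, and its difference between endings of -1.69 was near that of SST. The 8 libraries fall into 2 clusters by ending and share prefixes, so these values describe the libraries and carry no test.

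Apart from KRT19, the markers of exocrine, duct, immune and stromal cells were low or not listed. Of 13 exocrine and duct genes 4 were listed. CPA1, a pancreatic protease gene, was 8.41 ± 0.693 CPM in control libraries and 4.04 ± 0.924 CPM with cytokines (SD, n = 4 each), and was the 1 gene of the list called. The share called among all genes was 27.0%. KRT19, a duct keratin, was 105 ± 36.6 and 106 ± 38.6 CPM, CEL 2.70 ± 1.04 and 2.03 ± 0.424 CPM and SOX9 1.29 ± 0.379 and 1.89 ± 0.659 CPM (SD, n = 4 each). KRT19 was called higher in C and D by 0.60 on the CPM scale, as 14.2% of all genes were. That call was lost with TMM scaling at 0.47, and the part of KRT19 in the hormone differences was not tested. Of 7 immune and stromal genes only COL1A1 was listed, at up to 0.844 CPM.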

How the data were processed

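According to the study's methods, reads from a strand-specific mRNA kit were filtered with SOAPnuke, aligned to GRCh38 with TopHat 2.1.1 and counted with htseq-count 0.9.1 on Ensembl release 107 genes. The authors deposited CPM, after dropping genes that did not exceed 0.5 CPM in 4 or more samples. 4 further columns were not used. All values used were whole multiples of 1 read (within 0.01 read), which gave read counts. The members and gene lists were chosen with earlier results of these data known. Some genes of the alpha-cell and delta-cell lists are not reported here and were left out of their counts.

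For the main test, log2(CPM + 0.1) values of all 16525 genes were fitted by limma 3.58.1 in R 4.3.3, with the prior variance following mean intensity and Benjamini-Hochberg adjustment. A call needed an absolute log2 difference above 0.5 and an adjusted p below 0.05. Alternatives used other pseudocounts (0.5 and 1), only genes averaging 1 CPM or more, no trend, other scalings, omission of single libraries, and count models on the reads (DESeq2 1.42.0, edgeR 4.0.16). Ratios were compared by exact permutation tests. Any listed gene of the lists could be named, with values for the 4 of highest mean CPM in a list and for those called with an absolute log2 change above 1, as could the 5 genes most alike each hormone.

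The shared column-name prefix was the replicate block. Deviations from the group mean correlated by 0.46 to 0.75 within each of the 4 pairs, but the crossed pairs of A and B gave 0.45 and 0.49, which does not separate those prefixes. No 2 libraries of a condition were copies (chi-square per gene of 5.88 or more). Intervals cover these libraries only. The fits were tested on simulated data, with 100 genes changed 2-fold. Without a simulated prefix effect each fit recovered 99 or 100 of them. With a prefix SD of 0.5 in log2, limma and edgeR without the block recovered 0 and DESeq2 10. Both fits with the block recovered 100 there, each with 13 false calls among 16325 unchanged genes. Of 100 genes changed 4-fold, limma and edgeR without the block recovered 72 and DESeq2 99. The simulated prefix effects were equal in both conditions and independent between prefixes, a setting that favours the block. The real pairs of GCG were less alike, with differences from -2.44 to -0.35. Exon lengths came from GENCODE release 29, with 16167 of the genes matched, and promoter sequences from RefSeq on GRCh38.p14.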

Additional observations from a re-analysis of the deposited data

Results flagged for a closer look

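Within the groups of 4, 104 were examined for a library standing apart from the other three by Dixon's criterion, and chance flags about 5% of such groups. GCG, SST and INS were not among the genes with such a library. Control library C was highest for CHGA (24930 CPM against 16689 to 17991), CRYBA2 (194 CPM against 117 to 122) and PCSK2 (658 CPM against 482 to 510), and it also had the highest GCG. Control library D was lowest for GC (63.4 CPM against 110 to 116) and GNAI2 (485 CPM against 609 to 626). Cytokine library C was highest for TTR (2782 CPM against 1977 to 2036) and lowest for GIPR (68.8 CPM against 133 to 145). Cytokine library D was lowest for GNAI2 (385 CPM against 483 to 502) and INSM1 (285 CPM against 354 to 364). Each of these libraries carries the name ending 22. The cause was not tested.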

How the results depend on the processing

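The cytokine difference of GCG kept its sign in every alternative run and was called in those that take the column-name prefix or ending into account, at -1.47 with the replicate block in limma, -1.30 with the block in edgeR with TMM, and -1.47 with a term for the name ending, the last chosen after seeing the data. Without such a term it ranged from -2.10 (without cytokine library D) to -0.83 (without control library C) when single libraries were left out, with no call. That of SST was called in no alternative and changed sign, ranging from -0.38 to 0.48 when single libraries were left out. With the replicate block it was -0.0083 without pair D, which was chosen after seeing the data. The ratio of SST to INS turned to -0.83 with IAPP as the denominator and ranged from -0.0053 to 0.52 when single libraries were left out. The ratios of GCG to INS and to SST kept their sign throughout. The count of called genes stayed within 1.5 times the main count of 4470 in each alternative, between 3899 and 5852, as did the counts for the prefixes, the endings and the interaction. The sum of INS and INS-IGF2 was not run, since INS-IGF2 was not analysed here. Depth does not limit GCG or SST, whose lowest values rest on 304 and 18172 reads. The 4 pairs do.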

Other observations

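Genes of serotonin-making enterochromaffin-type cells, which share part of the islet endocrine program, were set beside the hormones from a list of 7, of which 5 were listed. Limma called 0 higher and 3 lower with cytokines, where 17.5% of all genes were called lower. DDC, which makes serotonin and dopamine from their precursors, fell from 30.7 ± 1.74 to 11.8 ± 2.32 CPM (SD, n = 4 each), by 1.39 on the log2 scale. TPH1, the first enzyme of serotonin synthesis, fell from 8.40 ± 2.45 to 3.74 ± 1.53 CPM (SD, n = 4 each), by 1.21, and TPH2 fell by 0.81. SLC18A2, a vesicular monoamine transporter, was 26.3 ± 3.13 and 28.3 ± 7.26 CPM (SD, n = 4 each) and was not called. The transcription factor FEV was 43.3 ± 15.4 and 37.3 ± 11.5 CPM (SD, n = 4 each) and was not called with cytokines, but it was lower in C and D than in A and B by -0.83 (adjusted p = 0.000349, limma). The other 4 listed genes were not called between the endings, with SLC18A2 at 0.47, TPH2 at 0.33, DDC at 0.22 and TPH1 at -0.23, and the median of the list was 0.22. Among all genes 20.7% were called between the endings.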
